A study of Mus musculus with 4 samples.

Results

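Immediate early genes are the genes a neuron transcribes first after it has fired, before any new protein is needed. The 10 described here were chosen by symbol, with earlier results of these data known: Fos, Fosb, Junb, Egr1, Egr2, Egr3, Egr4, Arc, Npas4 and Nr4a1. All 10 were found among 18492 genes listed from RNA-seq of hippocampus, taken from C57BL/6 mice at an age of 6 months. There were 4 libraries: a wild-type one (WT), one labelled Ogg1-/- (Ogg1 KO), one labelled Mutyh-/- (Mutyh KO) and one lacking both (DKO), whose genotype field reads Ogg-/- Mutyh-/- and whose title names Ogg1. Values are given in that order throughout unless a library is named. Ogg1 and Mutyh encode DNA glycosylases that act on 8-oxoguanine and on the adenine paired with it. The labels used here do not say which exons were removed, which sex the animals had or whether a library came from 1 animal or a pool. With 1 library per genotype there is no replicate check and no p-value, so a difference between libraries cannot be told apart from one between animals.

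In hippocampal neurons, calcium that enters through NMDA receptors and voltage-gated channels activates kinases, which in turn activate the factors CREB, SRF with its partners, and MEF2 at the promoters of these genes. Their transcripts are short-lived, so their levels follow recent activity closely. Most of the 10 encode transcription factors (the AP-1 subunits Fos, Fosb and Junb, the zinc-finger factors Egr1 to Egr4, the neuron-specific factor Npas4 and the nuclear receptor Nr4a1), while Arc encodes a protein that acts at synapses in the removal of AMPA receptors.

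The promoters show what these genes share in sequence outside their expression. The promoters of 7 of the 10 are described from the RefSeq promoter table (build GRCm38.p6); those of Egr1, Egr3 and Arc are not used here. The 250 bases before the start site are given 5′ to 3′ for 4 members, namely the AP-1 gene Fos and the factors Egr2 and Npas4, which stood lowest among these 7 in DKO, and Nr4a1, which stood nearest to WT. Capitals mark every match, on either strand, to TGACG, the CArG box (the core SRF binds) and TATAAA (a form of the TATA box). TGACG is the short part of the cAMP response element that CREB binds, and its reverse complement is CGTCA.
Fos, chr12:85473640-85473889, plus strand: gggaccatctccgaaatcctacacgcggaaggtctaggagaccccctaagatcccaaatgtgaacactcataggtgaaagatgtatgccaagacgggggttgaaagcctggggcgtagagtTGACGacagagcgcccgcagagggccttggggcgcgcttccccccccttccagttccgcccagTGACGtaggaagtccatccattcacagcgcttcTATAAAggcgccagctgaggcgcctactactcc
Egr2, chr10:67537619-67537868, plus strand: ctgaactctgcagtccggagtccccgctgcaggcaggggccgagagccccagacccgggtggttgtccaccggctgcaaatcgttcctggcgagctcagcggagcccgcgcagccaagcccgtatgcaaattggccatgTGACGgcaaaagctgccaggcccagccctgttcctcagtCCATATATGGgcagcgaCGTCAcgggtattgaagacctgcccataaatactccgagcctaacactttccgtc
Npas4, chr19:4989972-4990221, minus strand: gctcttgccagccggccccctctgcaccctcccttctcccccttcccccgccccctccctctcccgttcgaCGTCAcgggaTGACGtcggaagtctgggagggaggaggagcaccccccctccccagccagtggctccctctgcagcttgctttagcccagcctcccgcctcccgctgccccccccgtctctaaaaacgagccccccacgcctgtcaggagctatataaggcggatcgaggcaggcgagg
Nr4a1, chr15:101266596-101266845, plus strand: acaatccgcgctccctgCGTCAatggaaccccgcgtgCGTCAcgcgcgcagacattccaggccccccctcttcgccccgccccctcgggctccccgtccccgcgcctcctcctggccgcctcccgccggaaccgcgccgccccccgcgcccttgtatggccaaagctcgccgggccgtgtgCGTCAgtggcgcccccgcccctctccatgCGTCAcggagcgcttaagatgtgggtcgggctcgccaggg

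TGACG was present in 7 of the 7 member windows and in 17.8% of the 32851 windows of the same length in the table. Each member is counted by 1 window, while the 32851 hold several for some genes, such as 5 for Egr2. Fos held 2 matches, at 129 and 66 bases before its start, Egr2 held 2, at 111 and 55, Npas4 held 2, at 179 and 169, and Nr4a1 held 4. The full palindrome TGACGTCA, of which TGACG is a part, was in 0 of the 7 windows and in 1.55% of all windows. A CArG box was in Egr2 alone, 72 bases before its start, against 1.47% of all windows, and TATAAA in Fos alone, at 33, against 12.4%. The site GCGNGGGCG, which Egr proteins bind, was in Fosb and Nr4a1 (4.70% of all windows), and neither TGANTCA, the AP-1 site, nor AAAGGTCA, the site of Nr4a1, was in any of the 7 (6.75% and 1.34%). The member windows were also rich in G and C, with a median of 68.0% against 52.4%, and the shares above are not matched for that. A match is a description of the letters in these windows only. Variant forms of these sites, and sites further from the start, were not searched.

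The libraries held 17.02 M to 18.20 M unique reads in genes (M is 1000000 reads). Summed markers of dentate granule cells (803 to 927 reads per M), CA1 pyramidal cells (742 to 880.5) and CA3 pyramidal cells (647 to 698) were present in all 4 libraries with no gene of these lists at 0. Ogg1 itself had 94, 130, 81 and 103 reads, so its total goes against both labels that name its loss, although reads covered 47.2% and 46.4% of its length in those 2 libraries against 86.7% and 81.5% in the others. Mutyh had 39, 35, 15 and 20 reads. Every direction below for Ogg1 KO or DKO rests on those labels, and these names stand for the libraries labelled so. The library labelled Mutyh KO held 10307 reads of Xist, the RNA of the inactive X chromosome, against 14 to 29 in the others, and also 87 to 289 reads of each of 4 Y-linked genes, so its comparisons are also ones of sex-linked content.

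Scaled by library totals, all 10 immediate early genes had the same lowest and the same highest of the 4 libraries. Each was lowest in the library labelled DKO, which was the lowest of 4 for 24.7% of the 13186 genes with a mean of at least 1 RPKM (reads per kilobase of gene length per M reads). Each was highest in the library labelled Mutyh KO, as were 25.7% of those genes, and 6.32% of them showed both. Egr2 met that minimum through WT and Mutyh KO, where it was high. With TMM or median-of-ratios scaling DKO was still the lowest for 10 of 10, but Mutyh KO was the highest for 8, with Arc and Egr3 slightly higher in another library. Together the 10 took 629, 615, 699.9 and 459.5 reads per M. The Mutyh KO and Ogg1 KO libraries thus lie on either side of WT by less than DKO lies below it. Bulk RNA cannot tell fewer expressing cells from less RNA per cell.

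**Figure D1:**
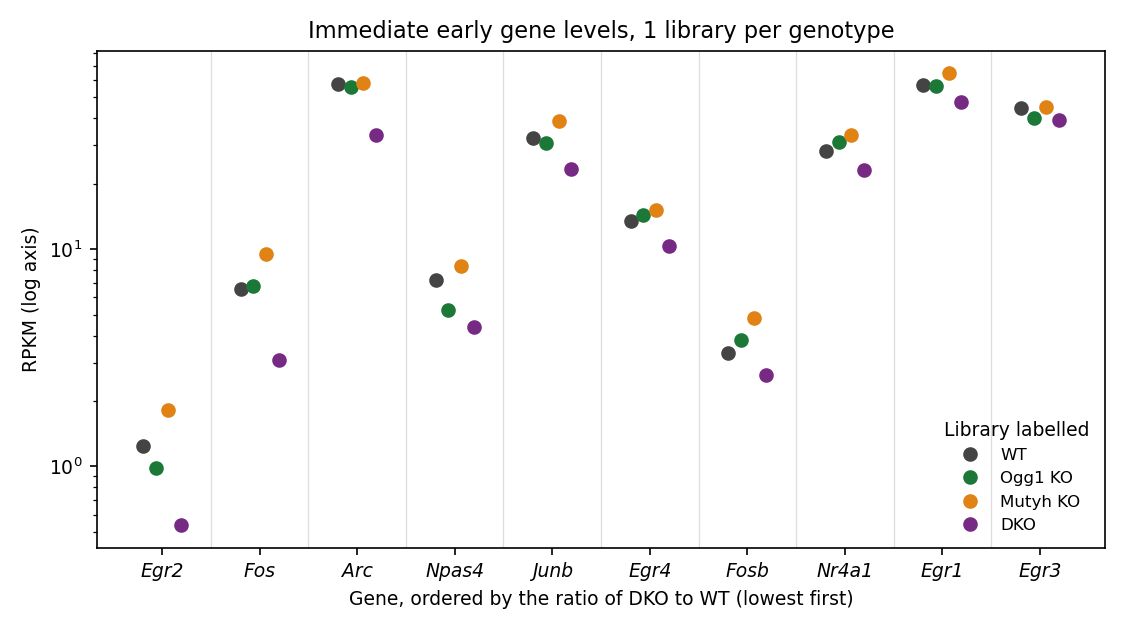
RPKM (log axis) of the 10 immediate early genes in the 4 libraries, 1 point per library, with genes ordered by the ratio of DKO to WT. The DKO point is the lowest for every gene, and the distance to the other 3 is wide for Fos (3.08 against 6.58 to 9.49 RPKM) and small for Egr3 (39.3 against 40.0 to 45.1).

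Among the AP-1 genes, whose products pair to form a dimer that binds DNA, Fos was the one furthest apart. It had 251 reads in the WT library and 243 in Ogg1 KO, against 343 in Mutyh KO and just 118 in the library labelled DKO, or 6.58, 6.77, 9.49 and 3.08 RPKM. The DKO library stood below the other 3, and Mutyh KO above them. As a ratio of reads per library total, DKO was at 0.468 of WT, with an exact 95% interval for counting error of 0.373 to 0.585, at 0.454 of Ogg1 KO (0.361 to 0.568) and at 0.324 of Mutyh KO (0.261 to 0.401). Mutyh KO was at 1.44 times WT (1.22 to 1.71), while the interval of Ogg1 KO against WT held 1 (0.860 to 1.23).

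Fosb, the relative of Fos whose splice form delta-FosB outlasts the others, had 227, 246, 313 and 182 reads (3.31, 3.82, 4.83 and 2.64 RPKM). Its DKO reads per total were 0.798 of WT (0.653 to 0.974), and its Mutyh KO reads 1.46 times WT (1.22 to 1.74), so it lay nearer to Fos in Mutyh KO than in DKO. Junb, which encodes a Jun partner of both, had 1088, 968, 1226 and 787 reads, or 32.6, 30.9, 38.9 and 23.5 RPKM. The ratio of Junb to WT was 0.720 in DKO (0.656 to 0.790) and 1.19 in Mutyh KO (1.10 to 1.29), and in Ogg1 KO it was 0.947, with an interval that held 1 (0.867 to 1.03). The AP-1 genes thus kept 1 order of libraries at the ends, with Junb about the middle of the 10 in size.

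The Egr genes encode factors with a shared zinc-finger DNA-binding region, and in DKO against WT they held both the lowest and the highest ratio of the 10. Egr2, the scarcest of the 10, had 67, 50, 93 and 29 reads (1.24, 0.988, 1.83 and 0.536 RPKM). Its ratio to WT was 0.431 in DKO (0.269 to 0.675) and 1.47 in Mutyh KO (1.06 to 2.04). Few reads make these the widest intervals of the group, and Egr2 met the minimum of 1 RPKM through WT and Mutyh KO, being under it in the other 2 libraries. The other 9 were above 1 RPKM in every library.

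Egr1, which had the highest mean RPKM over the 4 libraries (in WT Arc was higher) and is a factor long used as a marker of plasticity, had 3178, 2933, 3394 and 2647 reads (57.1, 56.1, 64.4 and 47.3 RPKM). DKO was at 0.829 of WT (0.787 to 0.873), a smaller difference than for Egr2 with a narrower interval. Egr4 had 512, 513, 548 and 397 reads (13.5, 14.4, 15.2 and 10.4 RPKM), and DKO was at 0.772 of WT (0.675 to 0.882). Egr3, a factor needed for muscle spindles and induced with Egr1 in the hippocampus, had 1140, 964, 1095 and 1014 reads (44.4, 40.0, 45.1 and 39.3 RPKM). Its DKO ratio was 0.885 to WT (0.813 to 0.964) and 0.984 to Ogg1 KO (0.900 to 1.08), the only interval among the 10 in that comparison that held 1. DKO and Ogg1 KO thus lay together for Egr3 and below the other 2 libraries.

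Npas4, which shapes inhibitory synapses after activity and responds to calcium entry rather than to growth factors, had the lowest ratio of the 10 in Ogg1 KO against WT, although its interval overlapped that of the next gene, Egr2. It had 431, 295, 473 and 262 reads (7.23, 5.26, 8.38 and 4.37 RPKM). Both libraries labelled as lacking Ogg1 were lower than both others. The ratio to WT was 0.728 in Ogg1 KO (0.626 to 0.847), 1.16 in Mutyh KO (1.02 to 1.32) and 0.605 in DKO (0.517 to 0.707), and DKO was at 0.831 of Ogg1 KO (0.701 to 0.984). Nr4a1, an orphan nuclear receptor, was above WT in Ogg1 KO. Its reads numbered 1303, 1342, 1449 and 1064 (28.4, 31.1, 33.4 and 23.1 RPKM), with ratios to WT of 1.10 (1.01 to 1.18), 1.18 (1.09 to 1.27) and 0.813 (0.749 to 0.882). With median-of-ratios scaling the interval of Nr4a1 in Ogg1 KO held 1.

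Arc had nearly equal levels in 3 libraries and a lower one in the fourth. Its reads numbered 3200, 2907, 3067 and 1864, which are 57.7, 55.8, 58.5 and 33.5 RPKM. The highest of the other 3 libraries was 1.05 times the lowest, the narrowest such range among the 10 (the others had 1.13 to 1.85). DKO stood at 0.600 of the lowest of them, the Ogg1 KO library (0.566 to 0.636), and at 0.580 of WT (0.547 to 0.614). For Arc the other 3 libraries thus lay close together, and DKO lay apart from all of them.

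Set beside WT, 10 of 10 members were lower in the library labelled DKO, where 50.7% of genes were lower. The list was chosen with earlier results of these data known, so these counts describe it and do not test it. All 10 had intervals below 1, which 17.2% of genes had, and 4 of 10 (Egr2, Fos, Arc and Npas4) were at least 1.5-fold lower, against 0.933% of genes. Without Egr2, which met the RPKM minimum through the libraries where it was high, 3 of the other 9 were, and their median log2 ratio was -0.37. With a pseudocount of 1 RPKM, Egr2 did not reach 1.5-fold and 3 members did. No member was above WT in DKO, at least 1.5-fold higher or with an interval above 1, which 49.2%, 3.25% and 16.2% of genes were. Intervals narrow with more reads, and the members' median level was 21.2 RPKM against 9.97 for all genes compared. Shares of genes by interval, here and below, are not matched for level. Counted from the lowest ratio of the 13186 genes, Egr2 had rank 18, Fos 24, Arc 60, Npas4 72, Junb 216 and Egr4 426. Fosb followed at 578, Nr4a1 at 711, Egr1 at 863 and Egr3 at 1986. The median log2 ratio of the 10 was -0.42, and that of all genes -0.00. Under the 5 other scalings and pseudocounts the members' median lay between -0.44 and -0.40.

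The order of members by size in DKO is less certain than the direction. Each of the 9 neighbouring pairs in that order had overlapping intervals, and 19 of the 45 possible pairs did not overlap. Arc (0.547 to 0.614), for example, did not overlap Junb (0.656 to 0.790), and Fos (0.373 to 0.585) did overlap Arc and Npas4 (0.517 to 0.707). A measure that needs no scaling between libraries is each member's share of the 10 members' reads. Fos made up 1.41% of them in DKO (exact 95% interval 1.17 to 1.69) against 2.20% to 2.86% in the other libraries, and Arc 22.3% (21.4 to 23.2) against 25.6% to 28.1%. Egr1 made up 31.6% (30.7 to 32.7) against 27.9% to 28.3%, and Egr3 12.1% (11.4 to 12.8) against 10.003% (9.46 to 10.6) in WT, 9.22% in Ogg1 KO and 9.12% in Mutyh KO. Within the 10, Fos and Arc took a smaller share in DKO, and Egr1 and Egr3 a larger one.

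**Figure D2:**
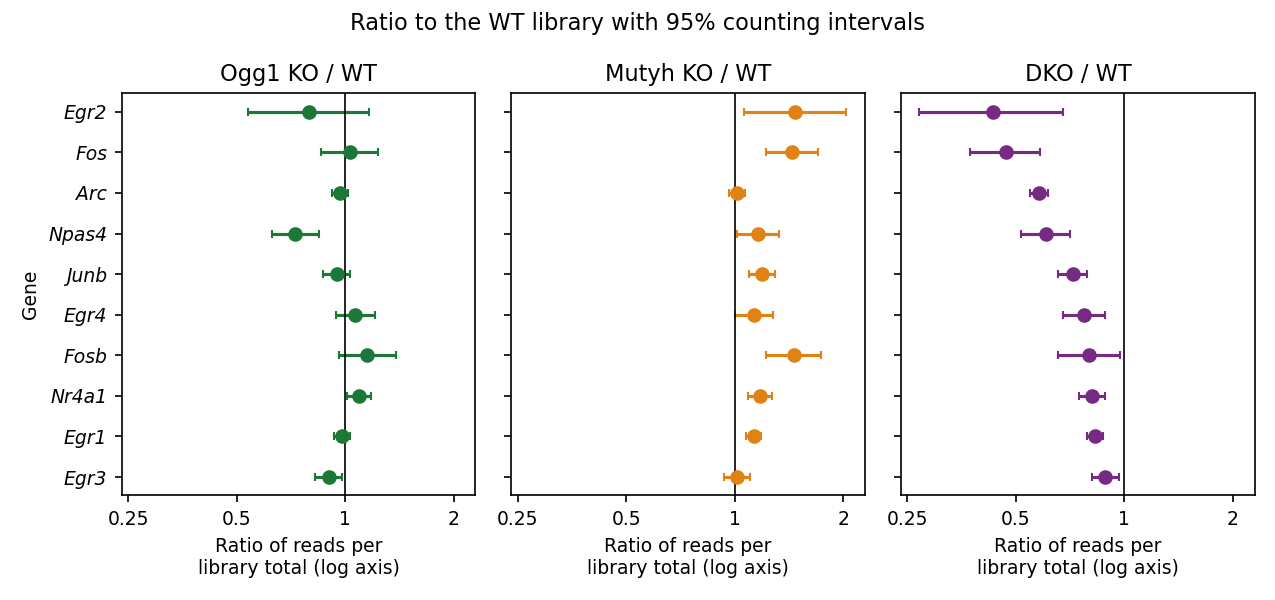
Ratio of reads per library total to WT (log axis) for each member in Ogg1 KO, Mutyh KO and DKO, with exact 95% intervals that cover counting error only. In DKO all 10 intervals lie below 1, in Mutyh KO 8 lie above 1 with these library totals, and in Ogg1 KO 7 hold 1.

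In the library labelled Mutyh KO, 10 of 10 members were above WT, as were 53.0% of genes, and 8 of 10 had intervals above 1, against 19.8%. With TMM or median-of-ratios scaling 6 had, without Npas4 and Egr4, whose low ends lay just above 1. None was at least 1.5-fold higher, which 4.76% of genes were. None was below WT, at least 1.5-fold lower or with an interval below 1, against 46.9%, 0.478% and 16.4% of genes. Egr2 (1.47), Fosb (1.46) and Fos (1.44) had the highest ratios to WT. Egr2, counted among the 8, met the RPKM minimum through WT and Mutyh KO, where it was high, so its place here is no support. Arc (1.01, 0.964 to 1.06) and Egr3 (1.01, 0.933 to 1.10) had intervals that held 1, and with TMM or median-of-ratios scaling both were below WT, at log2 ratios of -0.01 to -0.02. The median log2 ratio was 0.22 (0.21 without Egr2), against 0.01 for all genes.

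In the library labelled Ogg1 KO, members lay on both sides of WT, 6 below and 4 above (45.3% and 54.5% of genes), with a median log2 ratio of -0.04 against 0.02 for all genes. With library totals, intervals were below 1 for Npas4 and Egr3 (0.900, 0.825 to 0.981) and above 1 for Nr4a1, which is 2 and 1 of 10 where 16.2% and 21.3% of genes had such intervals. With median-of-ratios scaling 3 were below (Arc too) and 0 above. None was 1.5-fold away from WT in either direction, against 1.41% of genes lower and 3.27% higher.

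The comparisons of DKO with each single knockout, which do not use the WT library, had the same direction. Against Ogg1 KO, 10 of 10 were lower (54.0% of genes), 9 with intervals below 1 (19.8%), and Fos, Egr2 and Arc at least 1.5-fold lower (1.61%). None was above Ogg1 KO (45.8%), at least 1.5-fold higher (1.87%) or with an interval above 1 (14.1%). The median log2 ratio was -0.45, against -0.02 for all genes. Against Mutyh KO, 10 of 10 were lower (54.6%), all with intervals below 1 (13.4%), and 6 at least 1.5-fold lower (2.21%): Egr2, Fos, Npas4, Fosb, Arc and Junb. None was above Mutyh KO (45.3%), at least 1.5-fold higher (0.508%) or with an interval above 1 (9.79%). The ratios ran from 0.294 (0.187 to 0.450) for Egr2 to 0.872 (0.800 to 0.951) for Egr3, with a median log2 ratio of -0.77 against -0.01. Egr2 is counted in both comparisons, but it met the RPKM minimum through WT and Mutyh KO, so its place is no support. Without it, 2 members were at least 1.5-fold lower against Ogg1 KO and 5 against Mutyh KO. Since these comparisons share the DKO library with each other and with the one above, they do not support each other as separate samples.

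The pairs of libraries that share none set Mutyh-/- beside its control with Ogg1 labelled present (Mutyh KO against WT) and with Ogg1 labelled lost (DKO against Ogg1 KO). The 10 members were above in the first pair and below in the second, as were 27.6% of genes. With library totals these directions follow from each gene being highest in Mutyh KO and lowest in DKO, so they add no separate support. With TMM or median-of-ratios scaling 8 members had them, without Arc and Egr3. For 8 of 10, all but Arc and Egr3, both intervals excluded 1 in those directions, against 4.33% of genes, and for 6 with either of those scalings, which left out Npas4 and Egr4 as well. Egr2, which met the RPKM minimum through WT and Mutyh KO, is among the 8 and the 6. The departure of DKO from the sum of both single-knockout log2 ratios was -1.67 for Fos (95% counting interval -2.06 to -1.27), -1.44 for Egr2 (-2.24 to -0.63) and -1.07 for Fosb (-1.44 to -0.70). It was -0.76 for Arc (-0.87 to -0.65) and -0.05 for Egr3 (-0.22 to 0.13), the one interval that held 0. The departure was below 0 for 10 of 10 members (56.1% of genes), with intervals below 0 for 9 (20.7%). With median-of-ratios scaling it was below 0 for 9, and Egr3 was just above 0. Over the 10 the median departure was -0.66, against -0.04 for all genes. A departure of at least 1.5-fold below the sum was found for 7 members, against 6.61% of genes. In the pairs that differ by the Ogg1 label, Nr4a1 alone had an interval above 1 in Ogg1 KO against WT and below 1 in DKO against Mutyh KO, 1 of 10 members against 4.85% of genes, and with median-of-ratios scaling 0 of 10 had.

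**Figure D3:**
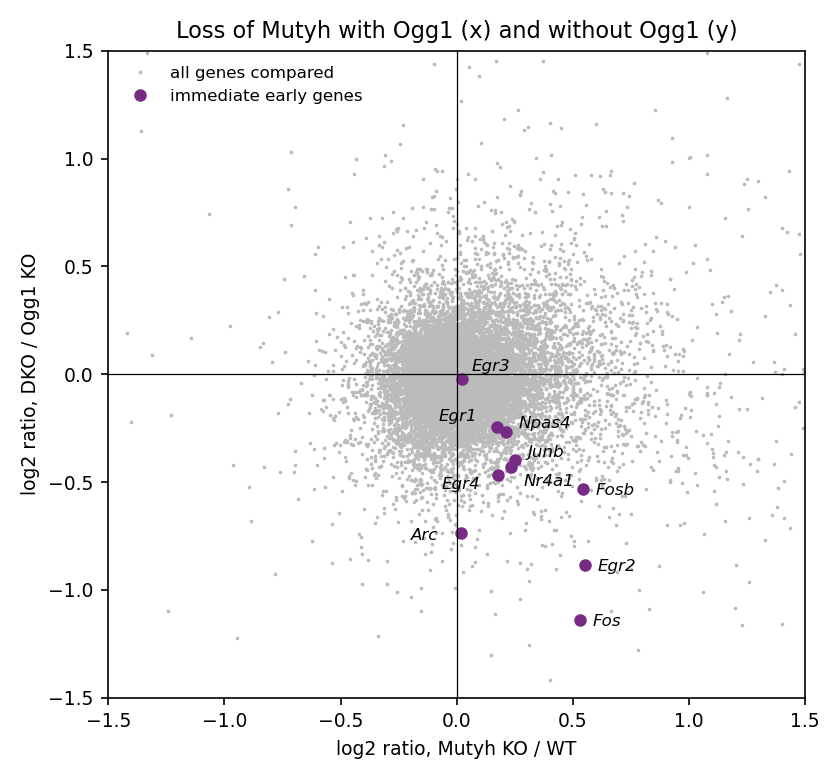
Each point is a gene, placed by its log2 ratio of Mutyh KO to WT (x) and of DKO to Ogg1 KO (y); grey points are the genes compared, of which 125 lie outside the axes, and purple points the 10 members. With library totals all 10 members lie right of 0 and below 0, with Fos (0.53, -1.14) and Egr2 (0.55, -0.88) furthest down and Egr3 (0.02, -0.02) close to the crossing.

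The other genes of the activity pathway, grouped by role, were compared in the same way. The list of other early transcription factors also holds genes of other kinds, such as Tiparp. Of its 20 genes, 17 reached 1 RPKM on average (Fosl1, Atf3 and Maff did not). In DKO 13 of 17 were below WT (50.7% of all genes), 9 with intervals below 1 (17.2%), and 1, Ier2, was at least 1.5-fold lower (0.933%). Ier2, a small nuclear protein gene, had 100, 67, 117 and 65 reads, and its DKO ratio was 0.647 (0.466 to 0.893). It was low in the 2 libraries labelled as lacking Ogg1, as Npas4 was. Jun, the AP-1 subunit with the most reads in the list, had 2537, 1997, 1956 and 1975 reads. All 3 knockout libraries lay below WT for Jun, at 0.838, 0.815 and 0.775, so it did not share the members' high value in Mutyh KO. The 4 above WT in DKO were Klf6, Crem, Csrnp1 and Tiparp, named after their values were seen. The list's median log2 ratio was -0.12 in DKO, 0.10 in Mutyh KO and 0.09 in Ogg1 KO.

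Early effectors, further induced genes that are not transcription factors, were below WT in DKO for 17 of the 19 compared, against 50.7% of all genes. Gem did not reach 1 RPKM. Of the 19, 7 had intervals below 1 (17.2%) and none was at least 1.5-fold lower (0.933%). Homer1, a scaffold of metabotropic glutamate receptors, and Arl5b were the 2 above, named after their values were seen. Counts are per gene, so the transcript forms of Homer1 were not told apart. The median log2 ratio was -0.16 in DKO, -0.03 in Mutyh KO and -0.03 in Ogg1 KO. Plk2, a kinase that weakens synapses after activity and the list's gene with most reads, had 3175, 3059, 2870 and 3134 reads, and its DKO interval held 1 (0.935 to 1.03). Against Mutyh KO, 6 of 19 were at least 1.5-fold lower in DKO, where 2.21% of all genes were. The early effectors thus differed less from WT than the 10 members did, in median.

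The lists of the later wave and of genes upstream of the members had medians near that of all genes, with members on both sides. Of 12 later activity genes, 9 were above WT in DKO and 3 below (Nrn1, Penk and Sorcs3, named after their values were seen), with a median log2 ratio of 0.04. The gene with most reads, Rasgrp1, which links calcium to Ras, had 11905, 13022, 10897 and 13164 reads and a DKO ratio of 1.10 (1.07 to 1.13). Of 28 upstream regulators (kinases, CREB, SRF and MEF2 factors, receptors and channels), 14 were above and 14 below WT in DKO, none by 1.5-fold, with a median of -0.00. Their intervals were below 1 for 11 and above 1 for 7, against 17.2% and 16.2% of all genes. The ends of the list, named after their values were seen, were the kinase gene Camk4 (2580, 3120, 2893 and 3820 reads; DKO ratio 1.47, 1.40 to 1.55) and Srf (1570, 1361, 1232 and 1211 reads; 0.768, 0.712 to 0.828). Camk2a, the abundant calcium-dependent kinase, had 102087, 87354, 88378 and 93537 reads, and its DKO ratio was 0.912 (0.904 to 0.920), close to its ratio in both single knockouts (0.911 and 0.915). The Egr co-regulator Nab2, itself induced by Egr factors, had 900, 853, 744 and 763 reads and a DKO ratio of 0.844 (0.765 to 0.930), and Nab1 had 0.896 (0.798 to 1.01).

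**Figure D4:**
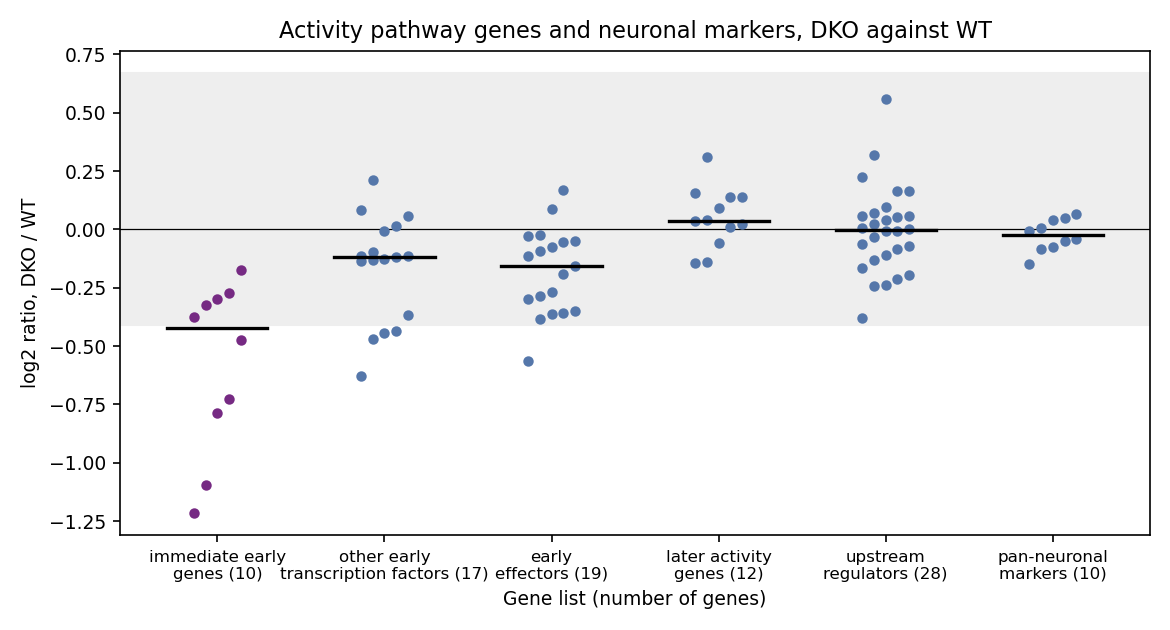
The log2 ratio of DKO to WT of each gene compared (points) in the 10 members, 4 lists of the activity pathway and the pan-neuronal markers, with the list's median (black bar); the grey band holds the middle 95% of all 13186 genes, from 0.754-fold to 1.59-fold. The members' median is -0.42, and those of the other early transcription factors and early effectors are -0.12 and -0.16.

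The genes most like the members in pattern were taken by distance from their median log2 ratios to WT in the 3 knockout libraries (-0.04, 0.22 and -0.42), among 9359 other genes with a mean of at least 5 RPKM. Nearest was Cacna2d2, an auxiliary calcium channel subunit, at a distance of 0.12, with 1143, 1111, 1270 and 904 reads. Dusp1, the phosphatase that ends MAP kinase signalling and an early effector in the lists above, was the second at 0.12, with 339, 319, 403 and 261 reads and a DKO ratio of 0.766 (0.650 to 0.903). Calb2, the calretinin gene, was the third at 0.14. C130074G19Rik, Serf1, Nudcd2, Ovca2 and Taf8 followed at 0.15 to 0.19. The members themselves lay at 0.07 (Junb) to 0.91 (Egr2), and 3 ratios from 4 libraries that share WT give a coarse likeness.

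Levels of other cells and regions are given beside these values, and their part in the result was not tested. Pan-neuronal markers, which are expressed in all neurons, summed to 8893, 8825, 8599.6 and 8786 reads per M, and 6 of 10 were below WT in DKO (median log2 ratio -0.02). Markers of dentate granule cells had a median of 0.01 in DKO (5 of 12 below WT), of CA1 pyramidal cells 0.08 (2 of 8 below) and of CA3 pyramidal cells -0.01 (3 of 6 below). In Ogg1 KO these medians were -0.20 (9 of 12 below WT), -0.04 (5 of 8) and -0.05 (4 of 6). In Mutyh KO they were 0.02, -0.10 and -0.04. Neocortical markers, another source of these transcripts in a dissection, summed to 414, 433, 399.5 and 404 reads per M, with 3 of 8 below WT in DKO. Markers of thalamus and habenula summed to 90.5, 97.8, 109 and 115, lowest in WT. In DKO 7 of 8 of them were above WT (49.2% of all genes), with a median log2 ratio of 0.49.

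Summed blood, meningeal and oligodendrocyte markers were highest in Mutyh KO and had DKO below Ogg1 KO, as the members together did. WT was the lowest library for these sums, unlike for the members. Gene by gene, however, 7 of 8 meningeal markers were above Ogg1 KO in DKO (45.8% of all genes), with a median log2 ratio of 0.32. Of the blood markers 4 of 5, and of the oligodendrocyte markers 6 of 8, were below it (54.0%). The other non-neuronal lists had other orders. Choroid plexus markers, all 12 above WT in each knockout library, summed to 277 reads per M in WT against 3319, 3279 and 1649 in the knockouts. Blood markers (5 of 6 compared; Hbb-b2 at 0 in Ogg1 KO and DKO) summed to 36.5, 73.4, 126 and 57.3. Meningeal markers summed to 221, 491, 683 and 451, and endothelial and mural markers, from cells in which some early genes are also induced, to 395, 439, 451 and 459.6, with 10 of 12 above WT in DKO where the members were below. Microglial markers summed to 395 to 425, astrocyte markers to 5216 to 6137 and oligodendrocyte markers to 4504, 5069, 5210 and 4594. No marker of these lists other than Hbb-b2 was at 0. Ribosomal RNA took 0.733%, 0.351%, 1.37% and 1.48% of reads, and leaving it out with choroid plexus and blood genes gave a members' median of -0.41 in DKO.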

How the data were processed

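Hippocampal RNA was sequenced in 4 libraries, 1 per genotype. The authors gave unique read counts per gene, per the file headers. Gene length, coverage as a percent of the gene's length and RPKM were deposited beside them, also per the file headers. The build was mm9, per the submitters' processing notes. The aligner, the counter and the use of strand are not given in the sources used here. Read totals of 17.02 M to 18.20 M equalled the library totals in the headers. Genes not listed were taken as 0, and rows with a gene ID but no symbol held 0.0179% to 0.0195% of reads and stayed in.

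From the counts, the ratio of reads per library total was computed (Python 3.11.15, scipy 1.17.1) with an exact conditional 95% interval, a count of 0 set to a floor of 3 reads. Intervals cover counting error only, since 1 library per genotype leaves no spread between animals to measure. Reads are not independent molecules, so the intervals may be too narrow even for counting error. The departure interval is a delta-method one from the same counts. Genes with a mean of at least 1 RPKM were compared, and a gene at least 1.5-fold apart was called. Ratios, intervals and departures were computed on simulated counts with known folds and counting error only. Those counts held no variation between animals, so they check the computation and not the results. Alternatives were TMM factors (edgeR 4.0.16), median-of-ratios factors, totals without ribosomal RNA, choroid plexus and blood genes, log2 RPKM with a pseudocount of 1 or 0.1, and 2 other filters. Named beside the members were genes of each pathway list at least 1.5-fold apart in DKO with at least 50 WT reads (up to 6), its gene with most reads, and the 8 genes nearest in pattern. Where RefSeq gave several starts, the promoter nearest a GENCODE principal transcript's start was used. Members and lists were chosen with earlier results of these data known.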

Additional observations from a re-analysis of the deposited data

Results flagged for a closer look

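With library totals, 8 members lay above 1 in Mutyh KO against WT and below 1 in DKO against Ogg1 KO, with both counting intervals excluding 1. With TMM or median-of-ratios scaling Npas4 and Egr4 no longer did. Egr2, which met the RPKM minimum through the libraries where it was high, is among the 8. On the log2 scale the departures were -1.44 for Egr2, -1.67 for Fos, -0.48 for Npas4, -0.65 for Junb, -0.64 for Egr4, -1.07 for Fosb, -0.66 for Nr4a1 and -0.42 for Egr1. Nr4a1 also differed in direction between the pairs that differ by the Ogg1 label, at 1.10 of WT in Ogg1 KO and 0.692 of Mutyh KO in DKO (departure -0.66), as did 4.85% of genes, but not with median-of-ratios scaling. The Mutyh KO library also held 10307 reads of Xist against 14 in WT, and its part in these values was not tested. With 1 library per genotype, the difference between the backgrounds was not tested against variation between animals.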

How the results depend on the processing

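Of 151 recomputed medians and counts over the 10 members, 147 moved by no more than the median half-width of the counting intervals or by no more than 1.5 times. The number of members below WT in Mutyh KO was 0 with library totals and 2 (Arc and Egr3) with TMM and with median-of-ratios scaling. With median-of-ratios scaling, 0 members had an interval above 1 in Ogg1 KO against WT, and so 0 had one above 1 there and below 1 in DKO against Mutyh KO (Nr4a1 in both with library totals). With a pseudocount of 1 RPKM, the members at least 1.5-fold lower numbered 3 in DKO against WT (4 from reads) and 2 against Ogg1 KO (3 from reads). The same counts without Egr2, an alternative chosen after seeing the data, were 3 and 2, and 5 against Mutyh KO (6 with it). Of 300 recomputed values of single members, 298 stayed within their counting interval. Both exceptions were Egr2, the scarcest member, whose log2 ratio with a pseudocount of 1 RPKM was -0.55 in DKO against WT and -0.88 against Mutyh KO, since a pseudocount shrinks low levels. The departure of Egr3 changed sign with median-of-ratios scaling, from -0.05 to 0.0035. The share of genes called depends on the filter. With any gene that had a read, then with a mean of at least 5 RPKM, the percent at least 1.5-fold lower was 4.25 and 0.427 (Ogg1 KO against WT), 2.31 and 0.128 (Mutyh KO against WT), 2.98 and 0.342 (DKO against WT), 4.51 and 0.747 (DKO against Ogg1 KO), and 5.83 and 0.779 (DKO against Mutyh KO). The percent at least 1.5-fold higher was, in the same order, 7.37 and 1.41, 9.83 and 1.74, 7.93 and 1.26, 6.13 and 0.566, and 3.38 and 0.0961. Depth limits Egr2 most, at 29 to 93 reads. No paired analysis was possible because each genotype has 1 library.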
